A study of Rattus norvegicus with 9 samples.

Results

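Mural cells are the contractile cells wrapped around blood vessels, smooth muscle cells on arteries and pericytes on capillaries. In the rat heart 7 genes by which they are commonly recognised were followed. They are Myl9, Tagln and Cnn1, which belong to the contractile machinery of smooth muscle, and Notch3, Mcam, Cspg4 and Pdgfrb, which encode surface proteins of pericytes and other mural cells. The 7 genes were picked by name from 25075 annotated loci of at least 200 nt. All 7 reached a value of 1 in 3 or more libraries, the condition that left 14215 loci for testing.

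RNA sequencing covered 9 libraries from Sprague-Dawley rats, 3 in each of 3 groups. TAC libraries come from the left ventricle of adults whose aorta had been narrowed by transverse aortic constriction, which makes the heart pump against a raised pressure. Fetal libraries come from ventricle at embryonic day 18 and are numbered by litter. Sham libraries are left ventricle of adults that had the operation with no narrowing. No group carries a transgene or a drug. Adult RNA was isolated with a column kit (Qiagen RNeasy Fibrous Tissue Kit) and fetal RNA with Trizol, so age, region and isolation cannot be told apart in any comparison with fetal libraries. The age of the adults and the time since surgery are not given in the sources used here, nor is it said whether each adult library is a separate animal.

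The contractile proteins and the surface receptors work at different steps of a mural cell's life. Endothelial cells release platelet-derived growth factor, which recruits pericytes through their receptor Pdgfrb, and they present Notch ligands to Notch3 on the neighbouring mural cell. Serum response factor and its myocardin-family partners then switch on contractile genes through a DNA motif called the CArG box. In mouse embryos, several smooth muscle genes, Tagln and Cnn1 among them, are also transcribed for a time in the heart muscle itself. The libraries were made from whole ventricle, so that fewer cells of a type and less RNA per cell cannot be told apart.

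Levels of Myl9, Cnn1 and Mcam were far higher in fetal ventricle than in sham left ventricle, while Tagln, Notch3, Cspg4 and Pdgfrb did not pass the test. Thus 3 of the 7 genes rose and 0 fell in fetal against sham, where 22.6% of all tested loci rose, 23.1% fell and 45.7% passed in either direction. Between TAC and sham 0 of 7 passed by limma, where 0.0141% of all loci passed (0.00703% higher and 0.00703% lower), and 0 of 7 had an unadjusted p below 0.05. TAC set against fetal gave 3 of 7 lower, again Myl9, Cnn1 and Mcam, where 22.9% of loci were lower, 22.8% higher and 45.7% passed in either direction. The first 2 comparisons share the sham libraries, and the third shares its libraries with both, so the 3 counts are not independent. The median log2 change of the 7 genes was 0.43 in fetal against sham (0.05 over all tested loci), -0.02 in TAC against sham (-0.01) and -0.70 in TAC against fetal (-0.04).

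**Figure D1:**
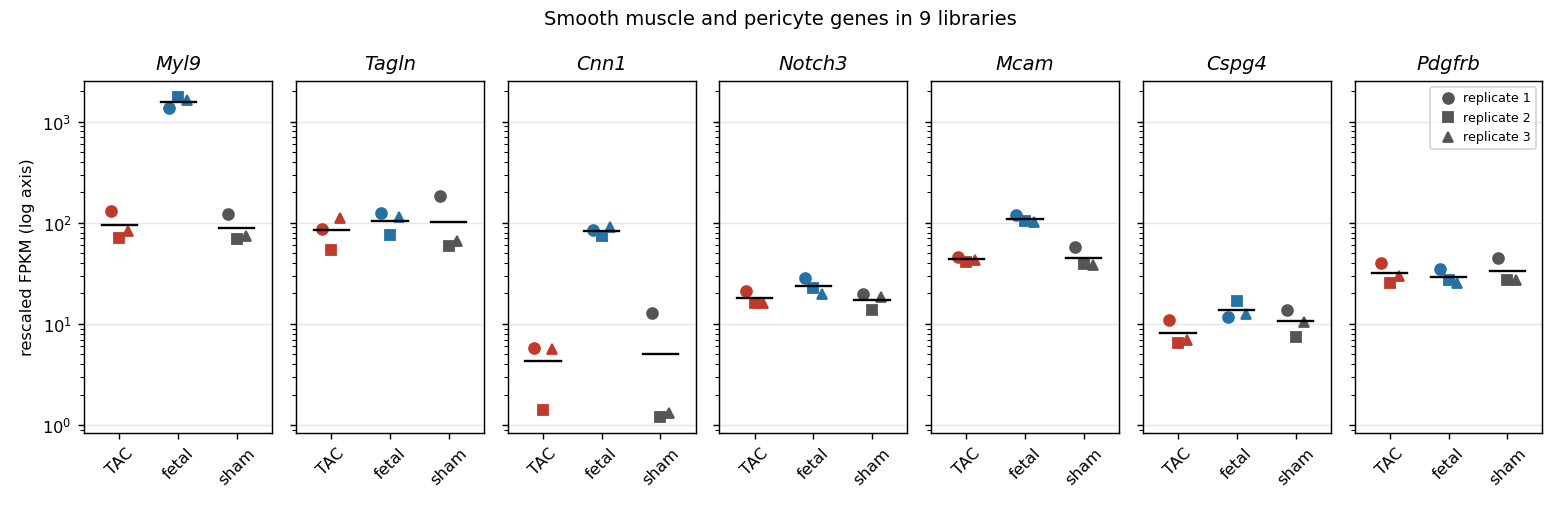
Level of each of the 7 genes in every library, in FPKM rescaled between libraries (log axis). Circles, squares and triangles are replicates 1, 2 and 3, and the bars are group means; Myl9, Cnn1 and Mcam have all 3 fetal libraries above all 6 adult libraries, and the sham circle of Cnn1 (12.7) lies far above the other sham points.

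Promoter sequence from RefSeq (build GRCr8) was found for 3 of the 7 genes, Cnn1, Notch3 and Cspg4. They are printed because Cnn1 rose in fetal ventricle and the other two did not pass the test, and because the CArG box has been studied in smooth muscle promoters. Each is the 250 bases before the gene's start, 5′ to 3′ on the gene's strand, with capitals on CCAAT boxes (CCAAT, or ATTGG on the other strand) and GC boxes (GGGCGG, or CCGCCC on the other strand). Cnn1 lies at chr8:28908187-28908436 (plus strand), Notch3 at chr7:11834586-11834835 (minus strand) and Cspg4 at chr8:66160692-66160941 (plus strand).
Cnn1: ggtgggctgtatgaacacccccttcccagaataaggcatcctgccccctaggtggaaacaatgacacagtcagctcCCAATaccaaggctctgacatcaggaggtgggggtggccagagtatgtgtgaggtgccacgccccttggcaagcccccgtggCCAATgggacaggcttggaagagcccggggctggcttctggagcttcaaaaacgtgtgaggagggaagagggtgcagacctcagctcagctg
Notch3: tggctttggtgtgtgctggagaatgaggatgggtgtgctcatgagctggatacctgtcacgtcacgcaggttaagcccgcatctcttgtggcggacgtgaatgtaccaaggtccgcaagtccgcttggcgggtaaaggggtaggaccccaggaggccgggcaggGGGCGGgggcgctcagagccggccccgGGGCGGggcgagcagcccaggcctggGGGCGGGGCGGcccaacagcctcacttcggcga
Cspg4: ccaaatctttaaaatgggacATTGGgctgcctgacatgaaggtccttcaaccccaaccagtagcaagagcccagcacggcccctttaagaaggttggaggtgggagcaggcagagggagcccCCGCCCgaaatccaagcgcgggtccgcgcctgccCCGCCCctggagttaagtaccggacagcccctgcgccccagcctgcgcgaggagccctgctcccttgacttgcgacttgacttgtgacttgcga
The Cnn1 promoter holds 2 CCAAT boxes, at -174 to -170 and at -92 to -88 from the start, and no GC box. Notch3 holds 4 GC boxes, the last 2 of which overlap by 1 base, and no CCAAT box. Cspg4 holds 2 GC boxes and 1 CCAAT box. Searched on both strands, the CCAAT box occurs in 34.0% and the GC box in 30.5% of 33469 RefSeq promoters cut to the same window. The TATA box (TATAAA, in 12.9% of promoters) and the CArG box (in 1.50%) have no match in these 3 windows. GC content was 59.6% for Cnn1, 67.6% for Notch3 and 62% for Cspg4, against a median of 51.2%, and CpG pairs numbered 4, 19 and 14, against a median of 5.

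Myl9 encodes the regulatory light chain of smooth muscle myosin, whose phosphorylation starts contraction (ENSRNOT00000027445, rn4 chromosome 3, 147187518 to 147193866). Its level was 129, 71.5 and 82.1 rescaled FPKM in the TAC libraries, given, as for every gene, in the order of replicates 1, 2 and 3, against 1352, 1753 and 1642 in the fetal libraries and 123, 68.9 and 74.2 in the sham libraries. Every fetal value lay far above every adult value, and the TAC and sham ranges overlapped almost entirely. The means were 94.3 ± 30.8 in TAC, 1582 ± 207 in fetal and 88.8 ± 30.1 in sham (SD, n = 3 each), a 17.8-fold ratio of fetal to sham. Myl9 rose in fetal by 4.18 on the log2 scale (SE 0.28, limma adjusted p = 1.29e-05). The 95% interval of that change was 3.54 to 4.83.

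Within a library Myl9 stood on average at percentile 99.8 of the tested loci in fetal ventricle and at percentile 88.2 in sham. The estimate rests on many fragments: the confidence bounds in the files imply between 32509 and 39066 in each fetal library and between 386 and 1530 in the adult libraries where the reference transcript stood alone. In all 6 adult libraries, and in none of the fetal ones, a separate assembled gene of 768 to 810 nt overlapped the higher-coordinate end of Myl9. It carried 77.1, 47.2 and 49.7 rescaled FPKM in TAC and 67.7, 51.7 and 48.0 in sham, between 0.548 and 0.751 times the Myl9 value of the same library. The TruSeq RNA kit does not mark strand, so fragments of overlapping genes cannot be told apart. With the overlapping gene added to Myl9, a step chosen after the data were seen, the fetal rise was 3.47 (adjusted p = 2.12e-05).

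Cnn1 encodes calponin 1, which binds actin and restrains the myosin motor in differentiated smooth muscle (ENSRNOT00000029577, rn4 chromosome 8, 21210584 to 21221026). It had 5.82, 1.42 and 5.69 rescaled FPKM in TAC libraries, 84.9, 74.8 and 90.4 in fetal libraries, and 12.7, 1.19 and 1.32 in sham libraries. Every fetal library was above every adult one, and among adults sham replicate 1 was the highest while the other sham libraries were the lowest. The means were 4.31 ± 2.50 in TAC, 83.4 ± 7.93 in fetal and 5.06 ± 6.60 in sham (SD, n = 3 each), a 16.5-fold ratio of fetal to sham. Cnn1 rose in fetal by 4.36 on the log2 scale (SE 0.70, limma adjusted p = 0.00125, 95% interval 2.75 to 5.96).

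The wide interval of Cnn1 goes with the spread between its adult libraries, the cause of which was not tested. The implied fragments were 45, 10 and 78 in TAC and 200, 15 and 28 in sham, few beside the other 6 genes. Sham replicate 1 was 10.1 times the mean of the other 2 sham libraries. Without it the fetal rise was 5.22 (adjusted p = 0.000126). Replicate 1 of each group differs from replicates 2 and 3 in its shortest assembled feature, 43 nt against 63 nt. It was therefore taken as a separate, presumed batch for within-replicate differences and alternative fits, although the labels name no batch. The main fit held no batch term. Within replicate 1, with 1 library per group, the fetal-minus-sham difference was 2.65, and over replicates 2 and 3 it was 5.21.

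Tagln encodes transgelin, an actin-binding protein abundant in smooth muscle (ENSRNOT00000024030, rn4 chromosome 8, 48902209 to 48907693). Its level was 87.0, 54.1 and 113 rescaled FPKM in TAC, 124, 76.3 and 113 in fetal, and 182, 58.5 and 66.1 in sham. The 3 groups overlapped, and the highest value and the 3 lowest values were all from adult libraries. The fetal-minus-sham change was 0.20 on the log2 scale (95% interval -0.82 to 1.22, limma adjusted p = 0.751). Sham replicate 1 was 2.93 times the mean of the other 2 sham libraries. The difference within replicate 1 was -0.56 and over replicates 2 and 3 it was 0.57. Without sham replicate 1 the change was 0.71 (adjusted p = 0.122).

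**Figure D2:**
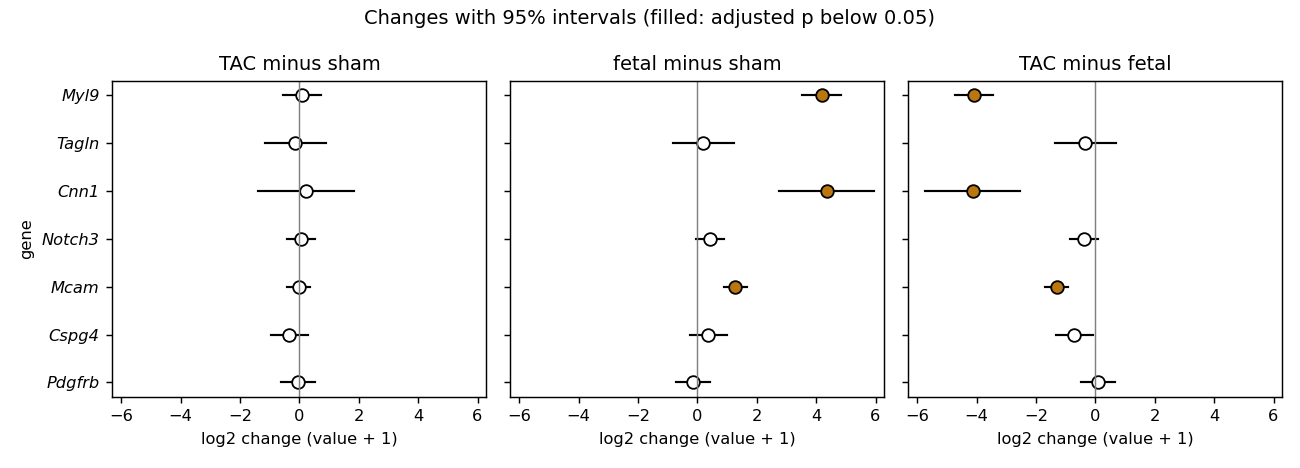
Log2 change of each gene on the log2(rescaled FPKM + 1) scale in the 3 comparisons, with 95% intervals from the limma fit; filled points have an adjusted p below 0.05. All 7 intervals cross 0 in TAC minus sham, and Myl9, Cnn1 and Mcam stand away from 0 in the other panels.

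Mcam encodes an immunoglobulin-family adhesion molecule, CD146, found on mural cells and also on endothelium (rn4 chromosome 8, 47121596 to 47127932). It measured 46.3, 41.0 and 43.0 rescaled FPKM in TAC, 120, 105 and 102 in fetal, and 57.4, 38.7 and 38.6 in sham. The lowest fetal library was well above the highest adult one, sham replicate 1. The means were 43.4 ± 2.66 in TAC, 109 ± 9.64 in fetal and 44.9 ± 10.8 in sham (SD, n = 3 each), a 2.43-fold ratio of fetal to sham. Mcam rose in fetal by 1.28 on the log2 scale (SE 0.17, limma adjusted p = 0.000465, 95% interval 0.89 to 1.67). The rise was 1.05 within replicate 1 and 1.40 over replicates 2 and 3.

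Notch3 encodes the Notch receptor that mural cells of small arteries depend on (ENSRNOT00000037456, rn4 chromosome 7, 12688267 to 12740015). Its level was 21.4, 16.3 and 16.3 rescaled FPKM in TAC, 28.7, 22.7 and 19.8 in fetal, and 19.6, 13.8 and 18.5 in sham. All 3 fetal values were above all 3 sham values, by a small margin, and the lowest fetal value was below the highest TAC value. The fetal-minus-sham change was 0.43 (95% interval -0.03 to 0.90) and did not pass the threshold (limma adjusted p = 0.115). With the library batch as a covariate the same change had an adjusted p of 0.0457.

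Cspg4 encodes the NG2 proteoglycan, a surface marker of pericytes (ENSRNOT00000023326, rn4 chromosome 8, 60610835 to 60645877). It had 11.0, 6.50 and 6.90 rescaled FPKM in TAC, 11.8, 16.9 and 12.4 in fetal, and 13.8, 7.45 and 10.5 in sham. Fetal values were above all TAC values, and sham values overlapped both ranges. The fetal-minus-sham change was 0.36 (95% interval -0.26 to 0.99, limma adjusted p = 0.312). The TAC-minus-fetal change was -0.70 (95% interval -1.33 to -0.08), with an unadjusted p of 0.0322 and a limma adjusted p of 0.0662. That change had an adjusted p of 0.0291 without TAC replicate 1, the TAC library with the highest Cspg4, and 0.0496 with the presumed batch as a covariate. Within replicate 1 the TAC-minus-fetal difference was -0.09, and over replicates 2 and 3 it was -1.01.

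Pdgfrb encodes the receptor through which pericytes are recruited (rn4 chromosome 18, 57014475 to 57053581). Its level was 40.1, 25.6 and 29.9 rescaled FPKM in TAC, 35.2, 27.4 and 25.5 in fetal, and 45.3, 27.0 and 27.2 in sham. Replicate 1 was the highest library of each group, and the groups overlapped. The change was -0.14 in fetal minus sham (95% interval -0.72 to 0.43, limma adjusted p = 0.675) and 0.10 in TAC minus fetal (adjusted p = 0.771). Separate assembled genes of at least 200 nt overlapped Pdgfrb in some libraries of each group, the highest at 71.2 rescaled FPKM in TAC replicate 2. With these added, a step chosen after the data were seen, the changes were -0.33 (limma adjusted p = 0.550) and 0.58 (adjusted p = 0.285), each with an SE of 0.41.

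In TAC minus sham the 7 changes ran from -0.34 (Cspg4) to 0.22 (Cnn1), each with an adjusted p of 1 by limma. The limma intervals give the range of changes that the values allow at this depth and spread, with no adjustment for the number of loci tested. They are not a limit of detection, because a call needed an adjusted p below 0.05, and a larger change could also have gone uncalled. They were narrow for Mcam (-0.42 to 0.37), Notch3 (-0.41 to 0.52) and Pdgfrb (-0.61 to 0.53). Those of Myl9 (-0.56 to 0.73) and Cspg4 (-0.97 to 0.29) were somewhat wider. They were widest for Tagln (-1.16 to 0.89) and Cnn1 (-1.38 to 1.82), whose intervals reach beyond 1 log2 unit. With its overlapping assembled genes added, a step chosen after the data were seen, Pdgfrb changed by 0.25 with an SE of 0.41. The narrow interval of Pdgfrb thus holds for the locus without them. Without sham replicate 1, Cnn1 differed by 1.09 (adjusted p = 0.938) and Tagln by 0.38 (adjusted p = 0.949). Within replicate 1, TAC minus sham was -1.0 for Cnn1 and -1.06 for Tagln, and over replicates 2 and 3 it was 0.84 and 0.32.

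In TAC minus fetal, Myl9 fell by 4.09 on the log2 scale (95% interval -4.74 to -3.45, limma adjusted p = 1.47e-05). Cnn1 fell by 4.13 (-5.73 to -2.53, adjusted p = 0.0017) and Mcam fell by 1.31 (-1.70 to -0.92, adjusted p = 0.000427). The TAC libraries of these 3 genes lay within or just above the sham range and below every fetal library. Notch3 had a change of -0.38 (adjusted p = 0.163) and Tagln one of -0.33 (adjusted p = 0.583).

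Ratios between 2 genes of the same library do not depend on how the libraries were scaled. Myl9 over Tagln ran from 10.9 to 23.0 in fetal libraries and from 0.677 to 1.49 in the 6 adult libraries. Cnn1 over Tagln ran from 0.686 to 0.980 in fetal and from 0.0199 to 0.0695 in adult libraries. Neither pair of ranges overlapped, so the 3 contractile genes were present in different proportions in fetal and adult ventricle. Myl9 over Cnn1, the pair that rose, ran from 15.9 to 23.4 in fetal and from 9.73 to 57.9 in adult libraries, which includes the fetal range.

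The surface proteins also stood in different proportions. Mcam over Pdgfrb was 3.42 to 4.01 in fetal libraries and 1.15 to 1.60 in adult ones, without overlap. Notch3 over Pdgfrb was 0.778 to 0.827 in fetal and 0.433 to 0.682 in adult libraries, also without overlap. Cspg4 over Pdgfrb was 0.334 to 0.615 in fetal and 0.231 to 0.386 in adult libraries, and these ranges did overlap.

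**Figure D3:**
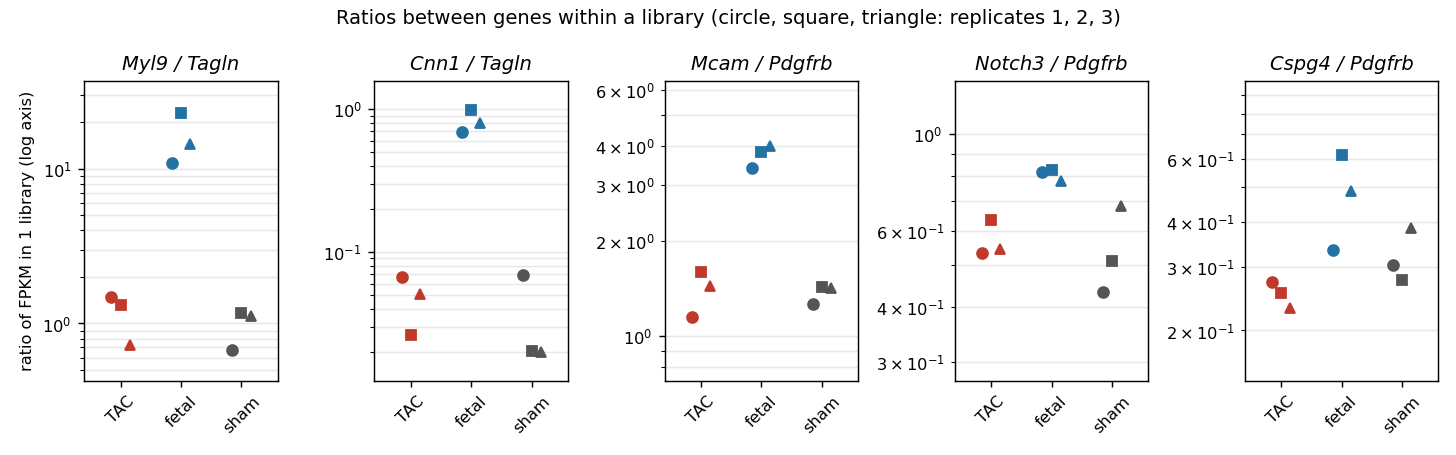
Ratio of 2 genes' FPKM within each library (log axes, a separate scale in each panel), with circles, squares and triangles for replicates 1, 2 and 3. Of these 5 ratios the 3 fetal libraries lie above all 6 adult libraries in 4, and overlap them for Cspg4 over Pdgfrb.

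FPKM are divided by transcript length, so levels can also be set side by side between genes. In TAC the order of mean levels ran Myl9, Tagln, Mcam, Pdgfrb, Notch3, Cspg4, Cnn1, and only the ranges of Myl9 and Tagln overlapped as neighbours. In fetal ventricle the order ran Myl9, Mcam, Tagln, Cnn1, Pdgfrb, Notch3, Cspg4, with overlapping ranges for Mcam and Tagln, Tagln and Cnn1, and Pdgfrb and Notch3. In sham it ran Tagln, Myl9, Mcam, Pdgfrb, Notch3, Cspg4, Cnn1. There Tagln and Myl9, Mcam and Pdgfrb, and Cspg4 and Cnn1 overlapped. Cnn1 thus moved furthest in rank: among the tested loci it averaged percentile 25.1 in TAC, 89.8 in fetal and 23.6 in sham. Pdgfrb averaged percentile 70.8 in TAC, 70.3 in fetal and 71.4 in sham.

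The deposited transcripts add a difference in structure at Cnn1. Each fetal library held, beside the reference transcript, a second assembled transcript that ran on past the reference's higher-coordinate end by 2383, 2381 and 2493 bases. In fetal replicates 1 and 2 it began below the reference's lower end, at 21210454 and 21210452. In fetal replicate 3 it began within the reference span, at 21214986, so the form was not the same in all 3. The second transcript took 33.7%, 23.6% and 25.7% of the locus in fetal replicates 1 to 3, at 28.6, 17.7 and 23.3 rescaled FPKM. None of the 6 adult libraries had such a transcript, and their Cnn1 value came wholly from the reference transcript. The adult libraries hold 10 to 200 implied Cnn1 fragments, and whether a transcript of that share would have been assembled from them was not tested.

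**Figure D4:**
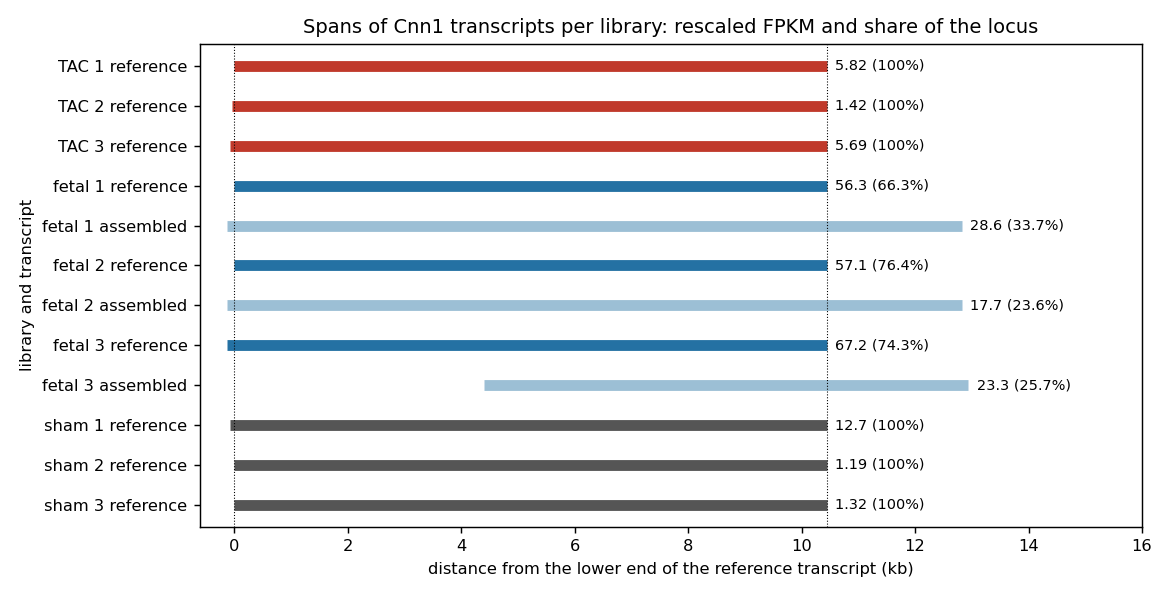
Spans of the Cnn1 transcripts in each library, in kb from the lower end of the reference transcript, with the rescaled FPKM and the share of the locus at the right; full colour marks the reference transcript, pale colour the second assembled one. The dotted lines are the ends of the reference transcript, and the pale bars that pass the right-hand line occur in the 3 fetal libraries.

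At Notch3, 8 of 9 libraries had an assembled form that began 691 to 722 bases below the reference's lower end, and in 6 of them it carried the whole value while the reference transcript was listed at 0. The exception was sham replicate 2. Notch3 was therefore read as the sum over the locus. Mcam has 2 reference transcripts, and ENSRNOT00000010463 held between 83.4% and 100% of the locus in every library. The other, ENSRNOT00000059784, was listed at 0 in 5 libraries and took 10.6% to 16.6% in the other 4, in which all 3 groups occur. Pdgfrb also has 2 reference transcripts, and ENSRNOT00000068535 took from 19.3% (sham replicate 3) to 100% (fetal replicates 1 and 2, sham replicate 1). Their lengths differ by 3 nt, and no group kept to a common share. For Cspg4, shorter assembled transcripts took 46.5% and 30.2% in fetal replicates 2 and 3, and 49.4% and 68.2% in sham replicates 1 and 3.

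Relatives of the 7 genes can share reads with them where sequences are alike, and 6 of 15 listed relatives could be looked up by symbol. These are relatives of Tagln, Cnn1, Mcam and Pdgfrb. No relative of Myl9, Notch3 or Cspg4 was measured, so sharing of reads was not looked at for those genes. Of the 6 relatives, 2 rose and 1 fell in fetal against sham, where 22.6% of all tested loci rose and 23.1% fell. The share that passed was near the 45.7% of all tested loci. Alcam, an adhesion molecule related to Mcam, averaged 4.21 ± 1.26 rescaled FPKM in TAC, 26.9 ± 6.84 in fetal and 5.33 ± 0.666 in sham (log2 change 2.12, limma adjusted p = 0.000196). Cnn3, the calponin of non-muscle cells, averaged 58.5 ± 2.80 in TAC, 122 ± 27.8 in fetal and 58.4 ± 11.4 in sham (1.05, adjusted p = 0.00277). The ratio of Cnn1 to Cnn3 was 0.551 to 0.831 in fetal libraries and 0.0194 to 0.186 in adult ones, so the rise of Cnn1 was the larger.

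Pdgfra, the sister receptor of Pdgfrb and a fibroblast marker, averaged 31.3 ± 9.72 in TAC, 15.8 ± 4.74 in fetal and 31.3 ± 10.2 in sham (-0.93, adjusted p = 0.0333). Without sham replicate 1 it was not called. Cnn2 (0.84, adjusted p = 0.0791), Tagln2 (0.04, adjusted p = 0.898) and Bcam (-0.28, adjusted p = 0.0798) did not pass in fetal against sham. In TAC against sham 0 of the 6 relatives passed by limma, where 0.0141% of all tested loci passed, and 0 had an unadjusted p below 0.05.

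Beyond the 7 genes, the measured genes of a smooth muscle contractile list did not rise as a block in fetal ventricle. The list also holds genes that are not contractile proteins, such as Cryab and Sncg, so it does not speak for contractile genes alone. Of 24 listed smooth muscle contractile genes 9 could be measured, and 3 rose and 5 fell (median log2 change -0.99, against 0.05 over all loci), where 45.7% of all tested loci passed in either direction. Without sham replicate 1 the counts were 3 and 4, with Cryab lost (adjusted p = 0.094), and over replicates 2 and 3 alone they were 2 and 4, with Csrp1 lost as well (adjusted p = 0.0511). Actg2, the actin of visceral smooth muscle, rose by 1.92 (limma adjusted p = 0.0261), at 13.2 ± 8.44 rescaled FPKM in TAC, 34.4 ± 9.36 in fetal and 9.14 ± 6.09 in sham. Des encodes desmin, an intermediate filament of heart muscle as well as of smooth muscle, and it fell by 1.66 (adjusted p = 0.000684). Its means were 1926 ± 317 in TAC, 676 ± 175 in fetal and 2094 ± 175 in sham.

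Sncg, a synuclein, fell by 2.25 (adjusted p = 0.00327) and Mustn1, a small nuclear protein of muscle and skeleton, fell by 1.63 (adjusted p = 0.000576). Also among the 5 that fell were Ppp1r14a (-0.99, limma adjusted p = 0.00235) and Cryab, a small heat-shock protein abundant in heart muscle. Among the 3 that rose were Vcl, the adhesion protein vinculin, and Csrp1, a LIM-domain protein. Actin genes are close in sequence to each other, and the counting could split reads between them. Acta2 and Myh11 had no symbol match and are not analysed here.

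Of 20 other listed pericyte genes 11 were measured, and 1 rose, 4 fell and 6 did not pass in fetal against sham (median -0.36). The share that passed was near the 45.7% of all tested loci. Higd1b, a mitochondrial protein of pericytes, averaged 12.6 ± 4.04 rescaled FPKM in TAC, 1.08 ± 0.262 in fetal and 13.8 ± 2.27 in sham (log2 change -2.83, limma adjusted p = 4.63e-05). Kcnj8, the pore of a potassium channel opened when ATP is low, averaged 35.8 ± 4.02 in TAC, 11.4 ± 1.55 in fetal and 39.9 ± 4.04 in sham (-1.73, adjusted p = 5.19e-05). Rgs4, a brake on G-protein signalling, fell by 1.65 (adjusted p = 0.00218), and Cd248, the surface protein endosialin, fell by 1.60 (adjusted p = 0.00106). Olfml2b, a secreted matrix protein, was the gene that rose. Without sham replicate 1 the count that rose was 2, with Kcne4 added (adjusted p = 0.0445).

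Of 23 listed genes of signalling to or within mural cells 15 were measured, and 1 rose, 3 fell and 11 did not pass (median -0.15). The share that passed was smaller than the 45.7% of all tested loci. Besides ligands and receptors, the list holds transcription factors. The 3 that fell belong to the Notch pathway. Dll4, a Notch ligand of arterial endothelium, averaged 19.0 ± 4.72 in TAC, 6.27 ± 1.90 in fetal and 20.8 ± 6.40 in sham (-1.58, limma adjusted p = 0.00234). Hes1 (-1.41, adjusted p = 0.0145) and Hey1 (-1.22, adjusted p = 0.00114), repressors switched on by Notch, were lower in fetal too. Mkl2, a partner of serum response factor, was higher at 5.76 ± 3.77 in TAC, 12.4 ± 1.17 in fetal and 4.93 ± 2.35 in sham (1.27, adjusted p = 0.0393), and it was not called over replicates 2 and 3 alone. Srf itself had a change of 0.26 (adjusted p = 0.426), the ligand Pdgfa one of 0.28 (adjusted p = 0.407) and the Notch ligand Jag1 one of -0.13 (adjusted p = 0.745).

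In TAC against sham no gene of these 3 lists passed by limma, where 0.0141% of all tested loci passed. At an unadjusted p below 0.05 there were 0 of 9 contractile-list genes, 0 of 11 pericyte genes and 2 of 15 signalling genes. Over all tested loci 612 of 14215 were below it. The 2 signalling genes were the platelet-derived growth factor genes Pdgfc, at -0.88 on the log2 scale, and Pdgfd, at 0.63.

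**Figure D5:**
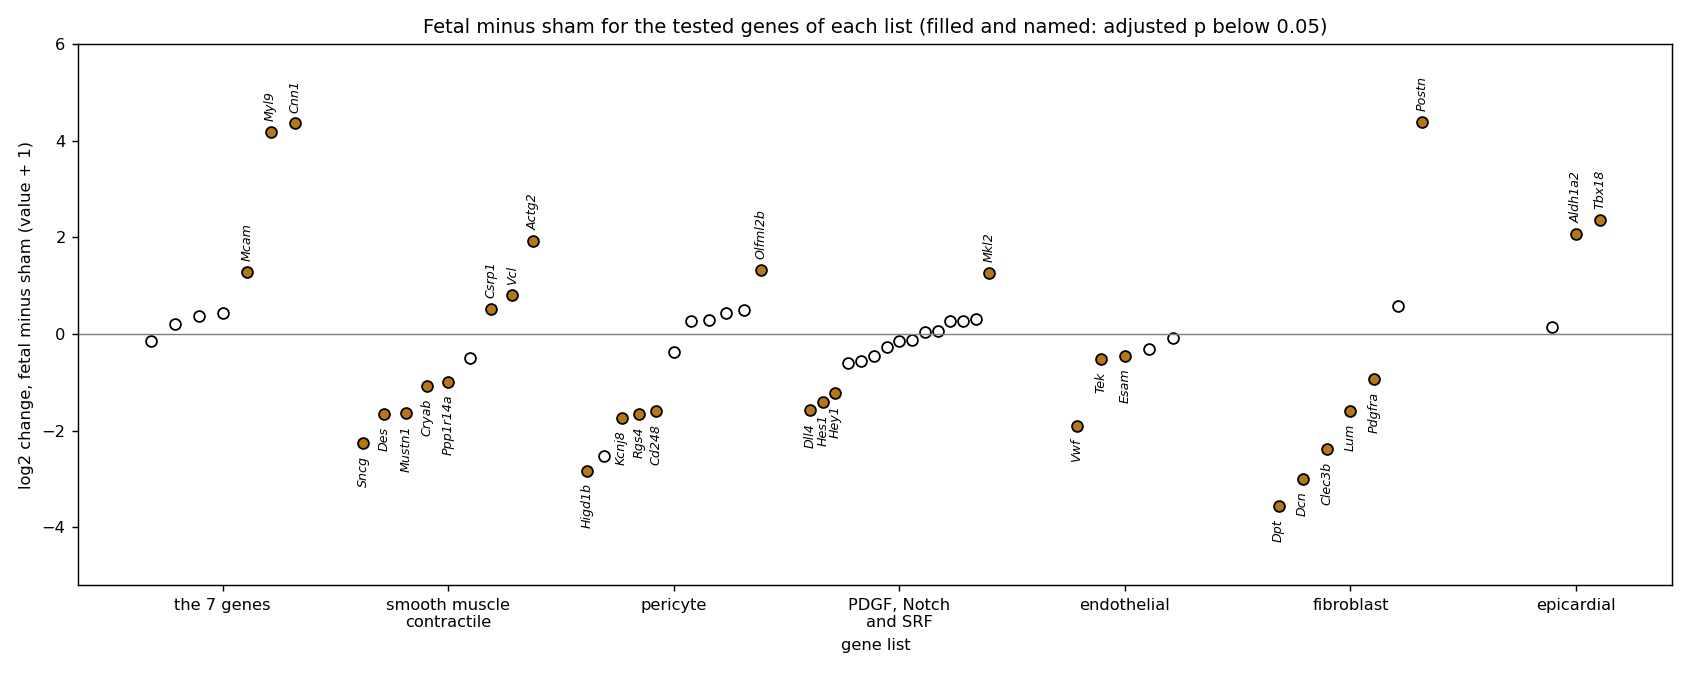
Log2 change of every measured gene of each list in fetal minus sham, on the log2(rescaled FPKM + 1) scale, sorted within a list; filled, named points have an adjusted p below 0.05. The pericyte list has 4 filled points below 0 and 1 above, and the contractile list 5 below and 3 above.

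Markers of other cell types moved between fetal and sham as well, where 22.6% of all tested loci rose and 23.1% fell. The part of these markers in the changes above was not tested. Of 5 measured endothelial genes 3 fell, led by Vwf, the von Willebrand clotting factor (-1.90, limma adjusted p = 0.00337). The summed level of the 5 ran from 125 to 224 rescaled FPKM in fetal against 216 to 331 in sham. Pecam1, which did not pass (limma adjusted p = 0.926), held 143, 38.1 and 35.8 of the sham sums. The other 2 that fell were the angiopoietin receptor Tek and the junction protein Esam, and without sham replicate 1 the count was 1 of 5. Of 7 measured fibroblast genes 5 fell and 1 rose, with sums of 397 to 606 in fetal and 1050 to 1510 in sham. Dpt (-3.57) and Dcn (-3.00), both proteins of the adult matrix, fell most, while Postn, a matrix protein of growing and injured heart tissue, rose by 4.40 (adjusted p = 0.000144). Postn held 356, 208 and 226 of the fetal fibroblast sums, and 23.5, 7.29 and 7.97 of the sham sums.

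Of 3 measured epicardial genes 2 rose, where 22.6% of all tested loci rose. They were the transcription factor Tbx18, by 2.36, and the retinoic acid enzyme Aldh1a2, by 2.07. The sums of the 3 genes were 32.6 to 47.3 in fetal and 9.13 to 13.2 in sham. Epicardium is the outer cell layer from which part of the coronary mural cells descend. Of 7 listed cardiomyocyte markers Mb was measured. Mb encodes myoglobin, and it averaged 20073 ± 1160 in TAC, 1105 ± 418 in fetal and 21019 ± 3244 in sham, so all 3 groups held heart muscle RNA. In TAC the sums were 248 to 357 for endothelial, 1509 to 1609 for fibroblast and 11.6 to 14.4 for epicardial genes.

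For each gene the 3 symbols with the closest profile were found by the root mean square difference between centred log2(rescaled FPKM + 1) profiles over the 9 libraries. Myl9 was closest to Bub1 (0.207), Ror2 (0.223) and Kif22 (0.242), and Cnn1 to Postn (0.391), Uchl1 (0.500) and Prr11 (0.523). Ror2 averaged 0.716 in TAC, 22.2 in fetal and 0.672 in sham, and Prr11 averaged 0.196, 25.2 and 1.07. Their adult levels lie near or below the 1 added before the log, which limits how far these profiles can be compared. Postn had 23.5 rescaled FPKM in sham replicate 1 and 7.29 and 7.97 in the other sham libraries. Sham replicate 1 is among the 9 libraries used to pick the closest profiles, so its high Postn value is no separate observation. Mcam was closest to Rnf145 (0.0990), Plekhh2 (0.103) and Ckap4 (0.117). Notch3 was closest to Sec61a1 (0.0875), Eif4b (0.0974) and Hars (0.109), and Pdgfrb to Stx8 (0.0728), Prickle2 (0.111) and Ctps (0.121). For Tagln they were Rtn4r (0.254), Gga3 (0.297) and Nkd1 (0.304), and for Cspg4 Uck2 (0.145), Mobkl2a (0.193) and Faf2 (0.194). None of these 21 is another of the 7 genes. The closest pair within the 7 was Notch3 and Cspg4 (0.285), and Myl9 and Cnn1 were 0.599 apart.

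Sham replicate 1 was above the mean of the other 2 sham libraries for each of the 7 genes, by factors from 1.21 (Notch3) to 10.1 (Cnn1). The same comparison gave factors of 1.04 (Tagln) to 1.69 (Myl9) in TAC and 0.796 (Myl9) to 1.35 (Notch3) in fetal libraries. Fragment totals implied by the deposited bounds ran from 6.37 to 11.7 in TAC, 17.5 to 25.7 in fetal and 11.9 to 21.6 in sham, in units of 1e6, so fetal values rest on more fragments than most adult values. On rn4, 4 of the 7 genes lie on chromosome 8 (Tagln, Cnn1, Mcam and Cspg4), which carries 5.61% of the tested loci that have a position. Of these 4, Cnn1 and Mcam rose in fetal ventricle while Tagln and Cspg4 did not pass.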

How the data were processed

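TruSeq RNA libraries of rat ventricle were compared, 3 TAC, 3 fetal and 3 sham. Per the submitters' processing notes, the tools were TopHat 1.3.1, Cufflinks 1.0.3 and a Cuffdiff of unstated version, on build rn4. The deposited FPKM values, named so per the file headers, are fragments scaled by transcript length and by sequencing depth. They come for each library's own assembly, with confidence bounds, and carry a further constant per library. The medians of the deposited values above 0 ran from 2.73e+06 to 4.60e+07.

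Loci were joined through the 39492 reference transcripts that keep their names in every table, together with the transcripts assembled with them, and reference transcripts that fell in the same gene in 5 or more libraries were put together. A locus is the sum of its transcripts. The gene names stood in between 1 (Notch3, Pdgfrb) and 6 (Cnn1) of the 9 deposited gene tables. Libraries were rescaled by the median of ratios over 13266 loci above 0 in all 9, to a mean total of 1000000.

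Loci that reached 1 in 3 or more libraries were tested as log2(value + 1), which understates changes of weak genes, with limma 3.58.1 in R 4.3.3 (1 fit of 9 libraries, trended eBayes, Benjamini-Hochberg over 14215 loci, threshold 0.05). The fit was tested on simulated data. The p-values reflect how far libraries of the same group differ, and that spread may be technical. The other steps used Python 3.11.15.

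Deviations from the group means correlated at 0.159 to 0.513 between same-numbered libraries. Replicates 2 and 3 of different groups correlated alike (0.113 to 0.291), and replicate 1 with either at -0.42 to -0.199, so that replicate 1 stands apart and a pairing of replicates 2 and 3 by number does not show. The replicate block was an alternative, among 20 planned ones and 2 added after the data were seen. The 7 genes and the gene lists were chosen with earlier results of these data known. Named beside them are up to 4 called genes of each list with the largest fetal change, all measured relatives and the 3 closest profiles. Other called or well-known members of a list, and Pdgfc and Pdgfd, were chosen after their values were seen. Genes without a symbol in the files are not analysed here.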

Additional observations from a re-analysis of the deposited data

How the results depend on the processing

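Myl9, Cnn1 and Mcam passed in fetal against sham and in TAC against fetal under each of 20 other settings and with overlapping genes added, and 0 of the 7 genes passed in TAC against sham under any of them. In fetal against sham the log2 changes ran from 3.47 to 4.55 for Myl9, 2.71 to 5.22 for Cnn1 and 1.13 to 1.47 for Mcam. The lowest Cnn1 value came with a pseudocount of 10. With the replicate block the calls on the 7 genes did not differ (Myl9 4.18, adjusted p = 3.73e-05), and 2, 6772 and 6801 loci were called in TAC against sham, fetal against sham and TAC against fetal.

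Cspg4 was called in TAC against fetal with equal library totals (-0.91, adjusted p = 0.0239) and with replicates 2 and 3 alone (-1.01, adjusted p = 0.0269), as well as with the batch covariate and without TAC replicate 1. Over all settings its adjusted p ran from 0.0239 to 0.697. That of Notch3 in fetal against sham ran from 0.0457 to 0.316. With reference transcripts alone Notch3 read -2.35, because 8 of 9 libraries carry it in an assembled form.

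Loci called in TAC against sham, 2 as reported, were 1 with a pseudocount of 10, 36 with reference transcripts alone, 15 with replicates 2 and 3 alone and 2 to 5 with 1 library left out. Fetal against sham gave 2016 with reference transcripts alone and 5013 to 6696 with 1 library left out, and TAC against fetal gave 2110 and 4988 to 6421. The cause of these shifts was not tested. Equal library totals moved the median over all loci in fetal against sham to 0.193, and in TAC against fetal to -0.243. Adult Cnn1 rests on 10 to 200 implied fragments.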
